A study of Mus musculus with 7 samples.

Results

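The comparison described here set a mouse tumor library made after 7 days without gefitinib against a library made at day 14 of gefitinib, to show which genes differed once the drug had been stopped. It used 2 of the 7 libraries of the study, 1 library per group. The tumors carried a deletion in exon 19 of Egfr and had been passaged under the skin of C57BL/6J mice, so that the RNA came from mouse tumor cells together with mouse host cells. The off-drug group had received gefitinib for 14 days and was then left for 7 days and sampled at day 21; its sample name says vehicle where its treatment entry says that nothing was given. The on-drug group was sampled after 14 days of gefitinib. The other 5 libraries, quoted as context, were vehicle at day 3, gefitinib at day 3, and 3 libraries of day 21 in which the same 14 days of gefitinib were followed by DC101, an antibody against mouse VEGFR2, by 4H2, an antibody against PD-1, or by both. The sources used here do not say how many animals entered a library. No library of day 21 under continued gefitinib was used, so stopping the drug and 7 further days of growth cannot be told apart.

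EGFR is a receptor tyrosine kinase that passes its signal through RAS, RAF and MEK to the kinase ERK, and deletions in exon 19 keep the receptor active without ligand. Gefitinib occupies the ATP site of the kinase reversibly. ERK switches on transcription factors of the ETS family and, with them, phosphatases and Sprouty proteins that damp the same pathway, and growth factor signalling also drives the cell cycle and the synthesis of lipid.

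Values are TPM, a transcript abundance corrected for transcript length. Differences are log2((TPM + 1) / (TPM + 1)), off drug over day 14 of gefitinib, for the 13997 genes whose TPM averaged 1 or more across the 7 libraries. Adding 1 makes this difference smaller than the ratio of the TPM values where a gene is low. With 1 library in each group there was no replicate spread and no test, and every difference below is one between 2 libraries. Of the 13997 genes, 1066 (7.62%) were at least 2-fold higher off drug and 1105 (7.89%) at least 2-fold lower, 15.5% in all. The median difference was -0.01, and the 5th and 95th percentiles were -1.17 and 1.24. At 4-fold or more, 196 genes (1.4%) were higher and 110 (0.786%) lower, 2.19% in all. At 8-fold or more the counts were 45 (0.321%) and 22 (0.157%), 0.479% in all.

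**Figure D1:**
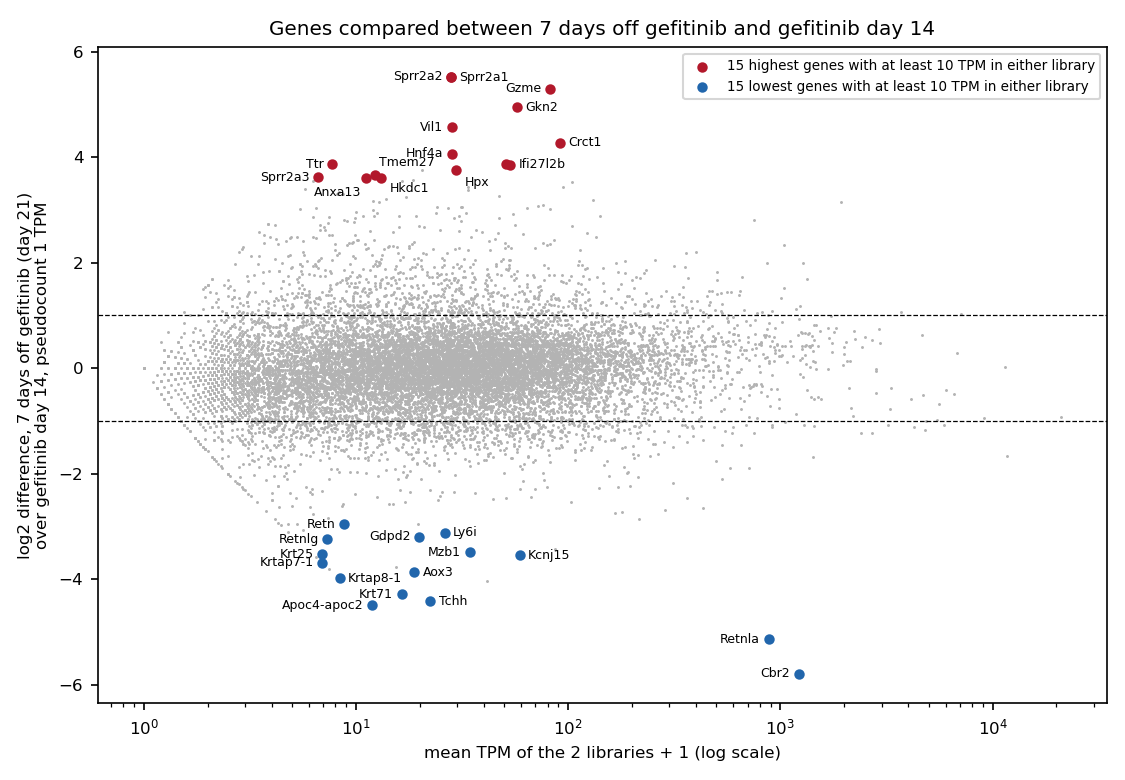
Each point is 1 of the 13997 genes compared, with the mean TPM of the 2 libraries plus 1 on a log x axis and the log2 difference, 7 days off gefitinib over gefitinib day 14, on the y axis. Dashed lines mark 2-fold; red and blue mark the 15 highest, led by Sprr2a2 at 5.52, and the 15 lowest, led by Cbr2 at -5.79, among genes with at least 10 TPM in either library.

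RNA of Egfr, the gene of the mutated driver, was at nearly the same level in both libraries. Egfr was at 446.7 TPM off drug and 438.7 TPM on day 14 of gefitinib (0.03). These values are for the whole gene and do not separate the deleted copy from normal Egfr of tumor or host cells. Of 21 genes downstream of EGFR, 17 had a difference above 0. Of the same 21 genes of EGFR and MAPK output, 6 were at least 2-fold higher and 1 lower, beside 7.62% and 7.89% of all genes compared, and the list median was 0.75. Etv4, an ETS factor induced by ERK, was at 145.7 TPM off drug and 47 TPM on gefitinib (1.61), Epha2 and Epha4, ephrin receptor kinases, at 105.4 and 54.7 TPM off drug against 31.2 and 10.9 TPM on gefitinib. For these 3 genes the off-drug values lay near those of the day 3 vehicle library, which were 163.1 TPM for Etv4, 96.8 for Epha2 and 45 for Epha4.

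The ERK phosphatase genes Dusp6 and Dusp4 were at 338 and 106.5 TPM off drug, against 125.5 and 49.6 TPM on gefitinib, which gave differences of 1.42 and 1.09. Among the inhibitors, Spry1 was at 105.6 TPM off drug and 56.5 on gefitinib (0.89), and Spry2, Spry4 and Spred1 differed by 0.30 to 0.49. Only Spred3 of the 6 Sprouty and Spred genes passed 2-fold, at 10.1 against 4.3 TPM. The ETS factors Etv5 and Etv1 differed by 0.42 and -0.18, so that within this family Etv4 alone passed 2-fold. Emp1, a membrane protein gene of the same list, went the other way, with 88 TPM off drug and 229.8 TPM on gefitinib (-1.37). The 16 immediate early genes had a median of -0.13: none was at least 2-fold higher, Egr1 was at 95.5 against 51.8 TPM (0.87), and Klf4 was at least 2-fold lower, at 29.9 against 97.8 TPM.

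In the EGF family, 2 of 6 ligand genes and 1 of 3 receptor genes compared were at least 2-fold higher off drug, with medians of 0.60 and 0.51. Areg (chromosome 5, 91139599 to 91148432, GRCm38.p6), which encodes amphiregulin, was at 179.1 TPM off drug, against 27 TPM on day 14 of gefitinib (2.69). Hbegf, which encodes another EGFR ligand, was at 61.5 TPM off drug and 18.7 on gefitinib (1.67), and Tgfa at 21.4 and 10.7 (0.94). The day 3 vehicle values of Areg and Hbegf were 37.1 and 11.4 TPM. The ligand genes Btc, Egf and Nrg1 were at no more than 3.7 TPM in either library. Ereg, Epgn and Nrg4 were under the filter on low values, Epgn at 0.1 TPM off drug and 3 on gefitinib. Among the receptors, Erbb3 was at 148.6 TPM off drug against 64.1 on gefitinib (1.20) and Erbb2 at 88 against 61.7 (0.51), while Erbb4 was listed at 0 in both. The feedback inhibitor gene Errfi1 differed by 0.16 and Cblb, a ubiquitin ligase gene, by -0.92.

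Other receptor kinases went both ways: of 29 receptor kinase and ligand genes, 3 were at least 2-fold higher and 6 lower (median -0.26). Over all genes compared the shares were 7.62% and 7.89%. Ros1 was at 42.9 TPM off drug and 8.6 on gefitinib (2.19), and Ddr1, which encodes a collagen receptor, at 106.2 and 35.8 (1.54). Axl, whose product has been linked to tolerance of EGFR inhibitors, was at 240.6 TPM off drug, against 624.7 TPM on gefitinib (-1.37), and had 46.6 TPM with vehicle at day 3. With 4H2, where epithelial genes held 0.0164% of all TPM, Axl was at 324.1 TPM. Which cells gave the Axl RNA was not tested. Mertk, a relative of Axl also used by macrophages, was at 30.5 against 75.8 TPM (-1.29). Met differed by 0.51 and Igf1r by 0.29. Among ligands, Igf2, a fetal growth factor gene, was at 132.3 TPM off drug and 25.3 on gefitinib (2.34), and Igf1, made largely by stroma and macrophages, at 9.5 and 25.1 (-1.31).

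Cell cycle genes were higher off drug, most of all those of mitosis. Of 44 genes compared, 30 were at least 2-fold higher and 1 lower, and the median was 1.31. The list held 0.341% of all TPM off drug and 0.155% on gefitinib. The 20 mitosis genes had a median of 1.90, and 18 of them passed 2-fold. Kif20a, a kinesin gene of cytokinesis, was at 62.5 TPM off drug and 9.3 on gefitinib (2.62). Ube2c, which encodes a ubiquitin-conjugating enzyme that works with the anaphase-promoting complex, was at 228.1 TPM off drug against 39.8 on gefitinib (2.49), and Cdc20, an activator of that complex, at 114.9 against 23 (2.27). The kinase genes Aurka, Plk1 and Cdk1 were at 47.6, 84.6 and 32.9 TPM off drug, against 9.2, 19.6 and 6.5 TPM on gefitinib. Mki67, the usual marker of cycling cells, was at 90.3 against 47 TPM (0.93) and so stayed below 2-fold, as did Cenpa (0.83). In each of the genes named here the off-drug value lay between the day 14 value and that of the day 3 vehicle library, where Ube2c was at 406 TPM, Cdc20 at 172 and Kif20a at 91.3.

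Promoters of mitosis genes commonly hold a CCAAT box and a cell cycle homology region, through which a repressor complex acts outside mitosis. The bases before the starts of Ube2c and Cdc20 are shown because these genes were among the mitosis genes that differed most. They are RefSeq sequence in GRCm38.p6, 5′ to 3′ in the direction of the gene, for chr2:164769679-164769928 on the plus strand and chr4:118437344-118437593 on the minus strand. Capitals mark every match, on either strand, of the letters CCAAT and TTTGAA, and in Ube2c 1 pair of CCAAT matches on opposite strands overlaps.
Ube2c: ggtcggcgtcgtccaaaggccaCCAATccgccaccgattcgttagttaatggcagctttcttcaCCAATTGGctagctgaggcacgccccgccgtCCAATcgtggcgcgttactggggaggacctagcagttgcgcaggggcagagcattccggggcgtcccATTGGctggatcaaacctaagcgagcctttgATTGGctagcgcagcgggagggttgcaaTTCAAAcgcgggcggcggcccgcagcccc
Cdc20: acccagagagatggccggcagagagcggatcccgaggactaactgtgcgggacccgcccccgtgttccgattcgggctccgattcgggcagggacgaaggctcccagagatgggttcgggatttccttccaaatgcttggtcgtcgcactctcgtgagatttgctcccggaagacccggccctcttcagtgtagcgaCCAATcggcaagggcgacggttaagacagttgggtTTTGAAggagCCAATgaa
In a window of 250 bases before to 50 bases after the start, 11 of the 15 mitosis promoters in the table held TTTGAA and 14 held CCAAT. Among all 10608 promoters of genes compared, the shares were 12.4% and 38.3%. Of the 14 licensing and synthesis genes with a promoter, 2 held TTTGAA and 8 held CCAAT. These are matches of letters and not sites of binding.

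Genes for the licensing and synthesis of DNA differed less than those of mitosis, with a median of 1.15 and 10 of 16 at least 2-fold higher. Cdc6, which loads the replicative helicase, was at 18.9 TPM off drug and 4.2 on gefitinib (1.94). The helicase subunit genes Mcm2, Mcm5 and Mcm7 were at 91.7, 78.4 and 117.8 TPM off drug, against 40.5, 34.5 and 46.8 TPM on gefitinib. Rrm2, of the enzyme that makes deoxyribonucleotides, was at 85.1 against 30.7 TPM (1.44), whereas Pcna and Fen1 differed by 0.55 and 0.50. The 12 replication histone genes had a median of 1.13 with 8 at least 2-fold higher. Their values are uncertain, since many histone genes are near copies of each other and how reads common to several of them were counted is not stated in the sources used here. Hist2h3c2, a histone H3 gene, was at 2035 TPM off drug and 628.7 on gefitinib (1.69), among the 10 largest gains in TPM.

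The G1 cyclins and their kinases split. Ccnd1 was at 316.6 TPM off drug and 188.5 on gefitinib (0.75), Ccne1 at 27.4 and 9.9 (1.38) and Cdk4 at 475.2 and 207 (1.19). Ccnd2 was at 33.3 TPM off drug, against 75.4 on gefitinib (-1.16), and Cdk6 at 13.8 against 28.4 (-0.99). Both are abundant in blood cells, and both were lowest in the day 3 vehicle library, at 9.7 and 3.3 TPM. The inhibitor gene Cdkn1a, encoding p21, was higher off drug as well, at 147.6 against 66.4 TPM (1.14), while Cdkn1b, encoding p27, differed by -0.08. The 10 p53 targets had a median of 0.45, near the 0.46 of a list of reference genes. Of the 10, 1 was at least 2-fold higher, Bbc3, and 1 lower, Sesn1, beside 7.62% and 7.89% of all genes compared. Bbc3, which encodes the death protein PUMA, was at 42.8 against 19.8 TPM, and Bcl2l11, which encodes BIM, was at 19.8 against 35.9 TPM (-0.83). None of the 7 pro-survival genes of the BCL2 family passed 2-fold, and Mcl1 was at 195.2 against 323.4 TPM (-0.73).

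Sterol synthesis was the metabolic group with the largest median. Cells make cholesterol from acetyl units by way of mevalonate and squalene, and the factor SREBP-2 switches on these enzymes together. Of 18 sterol pathway enzymes, 15 were at least 2-fold higher off drug and none lower (median 1.60). Fdps, for farnesyl diphosphate synthesis, was at 145.7 TPM off drug against 17.2 on gefitinib (3.01), Idi1, an isomerase gene, at 57.5 against 6.6 (2.94), and Sqle, for the oxidation of squalene, at 96.3 against 13.8 (2.72). The values of these 3 genes lay near those of the day 3 vehicle library, which were 144.1, 76.6 and 89.6 TPM. Pmvk, an enzyme of the mevalonate part, went the other way at 64.7 against 128.8 TPM (-0.98).

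Of 6 genes that regulate sterol supply, 5 were at least 2-fold higher. Stard4, for a carrier of cholesterol within cells, was at 34.1 TPM off drug against 6.8 on gefitinib (2.17), and Srebf2, which encodes SREBP-2, at 157.8 against 68.2 (1.20), whereas Srebf1, whose product favours fatty acid genes, was at 97.1 against 135.5 (-0.48). Of 10 fatty acid synthesis genes, 3 were at least 2-fold higher and 1 lower: Elovl6, Fads2 and Me1 were at 19, 132 and 112.5 TPM off drug, against 3.9, 38 and 48.1 TPM on gefitinib. Fasn, the synthase, was at 728.8 against 398.3 TPM (0.87). Scd1, a desaturase gene abundant in fat and skin, was at 77 TPM off drug, against 286.1 on gefitinib (-1.88), and its relative Scd2 at 346 against 289.3 (0.26). Adipocyte genes were also lower, with a median of -1.41; their part in the Scd1 value was not tested.

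Promoters of the sterol enzymes Idi1 and Hmgcs1 are shown because both genes differed by more than 2-fold and Hmgcs1 holds a match to the sterol regulatory element. They are RefSeq sequence in GRCm38.p6, 5′ to 3′ on the plus strand, for chr13:8885356-8885605 and chr13:119690101-119690350. Capitals mark matches on either strand of CCAAT and of TCACNCCAC, the sterol regulatory element. The only match of TCACNCCAC lies 137 bases before the RefSeq start of Hmgcs1. Bases shortly after that start were found in no Hmgcs1 transcript of GENCODE, another gene annotation, so the distance is given for the RefSeq start only.
Idi1: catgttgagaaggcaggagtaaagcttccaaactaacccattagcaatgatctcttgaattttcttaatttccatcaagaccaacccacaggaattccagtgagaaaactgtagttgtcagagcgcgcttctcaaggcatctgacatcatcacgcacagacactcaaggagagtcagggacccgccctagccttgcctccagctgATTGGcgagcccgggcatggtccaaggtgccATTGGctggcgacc
Hmgcs1: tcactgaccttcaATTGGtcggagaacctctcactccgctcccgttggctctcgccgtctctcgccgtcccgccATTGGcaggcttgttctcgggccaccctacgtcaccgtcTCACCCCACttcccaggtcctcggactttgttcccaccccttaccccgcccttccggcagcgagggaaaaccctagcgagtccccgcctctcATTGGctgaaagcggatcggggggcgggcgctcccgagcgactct
Of 13 sterol enzyme promoters in the table, 12 held CCAAT within 250 bases before to 50 bases after the start, against 38.3% of the promoters of genes compared. TCACNCCAC was in 1 of the 13 and in 1.08% of those promoters. NF-Y, the factor that binds the CCAAT box, is known to work beside SREBP at such promoters.

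Glycolysis and ribosome biogenesis had smaller medians above 0, and chaperones a median below 0. Of 11 glycolysis genes, 5 passed 2-fold and none was lower: Gapdh was at 1717 TPM off drug and 755.1 on gefitinib (1.18), Pfkl at 138.2 and 60.3 (1.18), Eno1 at 1111 and 529.2 (1.07), and Ldha at 1041 and 503.3 (1.05). The 9 other hypoxia genes had a median of -0.12, with Vegfa at 66.5 against 75.3 TPM and Car9 at 1.7 against 3.1. Slc16a3, for a lactate transporter, was the 1 of them past 2-fold, at 66 against 24 TPM (1.42). Of 10 targets of the stress factor ATF4, 4 were at least 2-fold higher and none lower (median 0.52). The 3 highest were the serine synthesis genes Phgdh, at 183 TPM off drug and 46.5 on gefitinib (1.95), and Psat1, at 104 and 29.9 (1.76), and Trib3, at 27.2 and 6.7 (1.87). Slc3a2, for an amino acid transporter, was at 67 against 134 TPM (-0.99) and Ddit3 differed by -0.68. The 9 chaperone genes of the unfolded protein response, by contrast, had a median of -0.56, all of them below 0 and none by 2-fold. Ribosome biogenesis genes had a median of 0.69, with Nop56 at 107.9 against 46.1 TPM (1.21), and all 15 were above 0. The 20 cytosolic ribosomal protein genes had a median of 0.45 with none past 2-fold. A list of 12 reference genes, in which Gapdh was the highest, had a median of 0.46. Of these 12, 10 lay above 0 and 2 were at least 2-fold higher. Rpl41, Rps2 and Rpl12 were among the 10 largest gains in TPM, at 5650, 3641 and 2310 TPM off drug, against 3674, 2176 and 1164 TPM on gefitinib. The 15 nuclear genes of the respiratory complexes lay between -0.26 and 0.42.

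**Figure D2:**
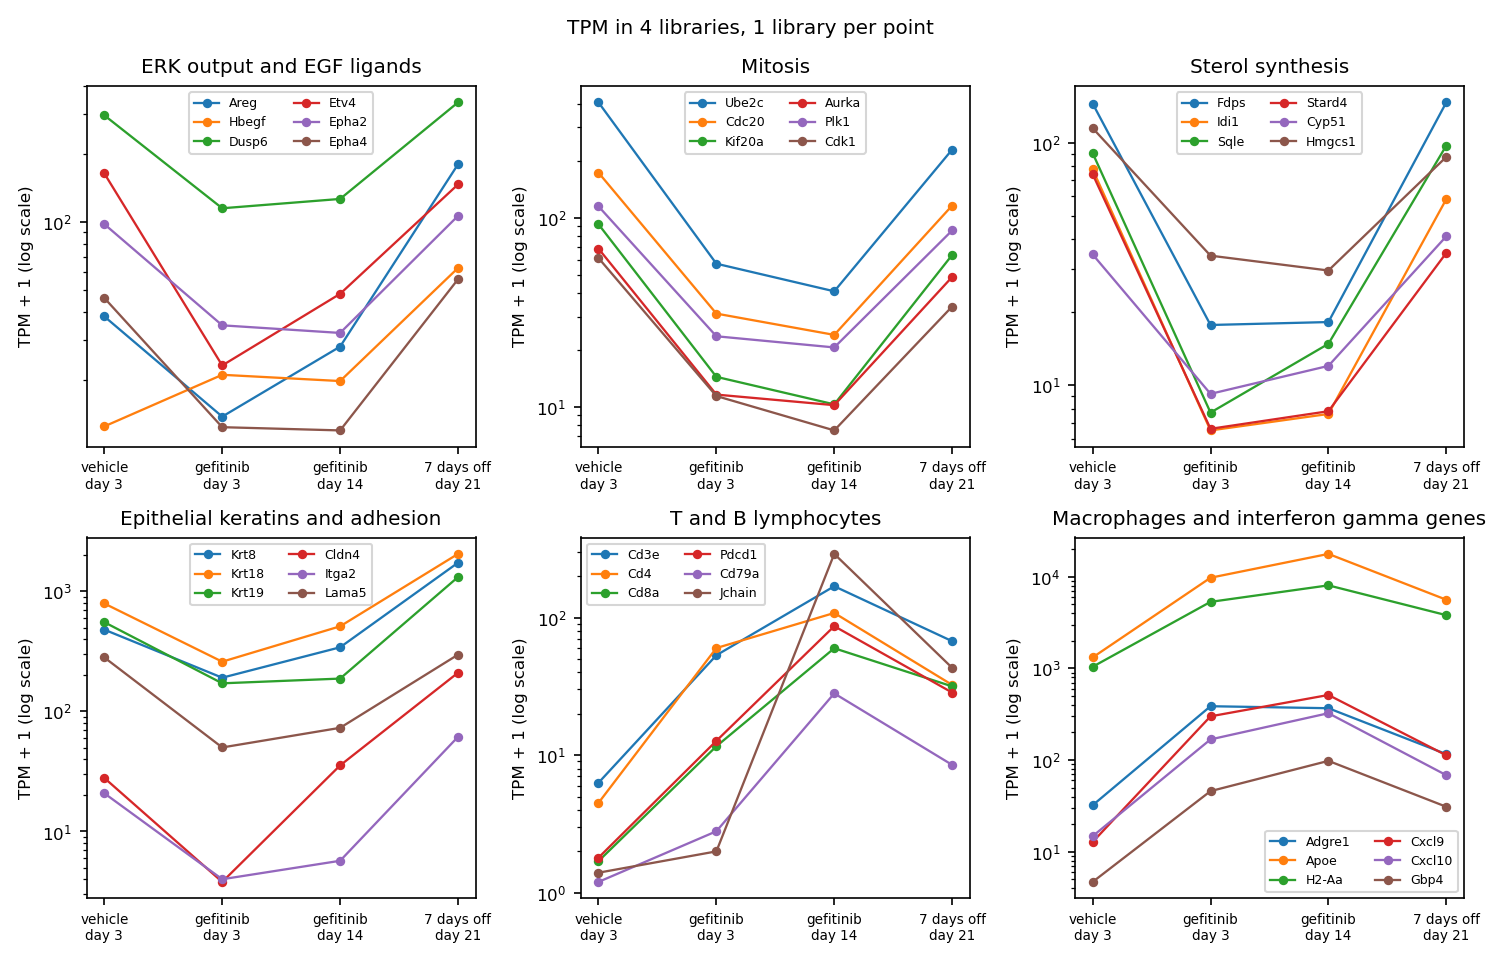
Each panel plots TPM + 1 on a log y axis for 6 genes in 4 libraries in order of treatment, vehicle day 3, gefitinib day 3, gefitinib day 14 and 7 days off gefitinib at day 21, with 1 library per point. Ube2c was at 406, 56.1, 39.8 and 228.1 TPM in that order, Fdps at 144.1, 16.7, 17.2 and 145.7, and Cd3e at 5.3, 52.2, 167.7 and 66.3.

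Epithelial genes were higher off drug without exception among the 23 compared. The other 2 of the list, Prom1 and Cdhr5, were under the filter. All 23 lay above 0, 13 were at least 2-fold higher, and the median was 1.14. The list held 0.96% of all TPM off drug and 0.303% on gefitinib. Keratins of simple epithelia differed most. Krt19 was at 1315 TPM off drug and 186.7 on gefitinib (2.81), Krt8 at 1731 and 341.1 (2.34) and its partner Krt18 at 2051 and 510.6 (2.00). All 3 exceeded the day 3 vehicle library, where they were at 552.6, 478.8 and 791.4 TPM. Tight junction genes were higher too: Cldn4 was at 209 TPM off drug against 34.5 on gefitinib (2.56), and Ocln at 17.4 against 2.6 (2.35). Epcam, an adhesion gene of epithelial cells, was at 332.3 against 101.8 TPM (1.70), while Muc1 differed by 0.29. In bulk RNA a larger number of epithelial cells and more RNA per cell cannot be told apart, here or for any group below. The part that the share of epithelial RNA had in the ERK, cell cycle and sterol values was not tested.

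Adhesion to the basement membrane was among the groups that were higher. Integrins bind cells to laminins and collagens, and 5 of 9 were at least 2-fold higher off drug. Itga2, of a collagen receptor, was at 60.4 TPM off drug against 4.7 on gefitinib (3.43), Itga3, of a laminin receptor, at 177 against 44.7 (1.96), and Itgb6, of a receptor that activates TGF-beta, at 43.2 against 12.9 (1.67). Of 7 laminin genes, 3 were at least 2-fold higher and 3 lay below 0 (median 0.06). Lama5 was at 295.9 TPM off drug and 72 on gefitinib (2.02) and Lamb1 at 199.2 and 83.7 (1.24). Lama4, a vessel laminin, was at 48 and 85.9 (-0.83), and Lama3 and Lamb3 differed by -0.58 and -0.31. The basement membrane collagens Col4a1, Col4a2 and Col18a1 were at 646, 491.6 and 122.6 TPM off drug, against 251.8, 229.6 and 45.7 TPM on gefitinib. The fibrillar collagens Col1a1, Col1a2 and Col3a1 differed by -0.51, -0.47 and -0.37.

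Several genes for secreted and surface proteins, grouped here after their values were seen, had their highest value of the 7 libraries off drug. Tnc, which encodes the matrix protein tenascin C, was at 560 TPM off drug against 148.2 on gefitinib (1.91), and no other library exceeded 192.2. Spp1, for osteopontin, was at 265.8 against 74.3 TPM (1.83), Cyr61, a target of YAP, at 365 against 100.5 (1.85), and Plaur, the urokinase receptor gene, at 217.7 against 70.6 (1.61). Clu, which encodes the secreted chaperone clusterin and was the second largest gain in TPM, was at 3455 TPM off drug and 387.1 on gefitinib (3.15), with 1454 in the day 3 vehicle library. Ctgf, the relative of Cyr61, went the other way at 116.8 against 226.3 TPM (-0.95). The 14 mesenchymal transition genes were divided, with Tnc and Spp1 at least 2-fold higher, and Twist1 at 15.4 against 37.3 TPM and Twist2 at 5.3 against 13.5 at least 2-fold lower.

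Markers of lung cell types did not move as 1 group. The tissue is labelled lung tumor, and markers of alveolar type 2 cells, which make surfactant, were abundant in both libraries. Sftpb was the largest gain in TPM of all genes, at 9561 TPM off drug and 4709 on gefitinib (1.02). Napsa, which encodes the protease that processes surfactant proteins, was at 1014 against 307.5 TPM (1.72) and Lpcat1, for surfactant lipid, at 320.9 against 155 (1.05). Sftpc, the most specific surfactant gene, went the other way at 2429 TPM off drug against 4162 on gefitinib (-0.78), as did Sftpa1 at 88.2 against 133 (-0.59). Nkx2-1, the factor that specifies lung epithelium, was at 238.3 against 122.3 TPM (0.96). Over the 15 type 2 genes compared the median was 0.29, with 3 at least 2-fold higher and 2 lower. The 2 lower ones were Hc, at 0.5 against 4.1 TPM, and Lyz2, which macrophages also express, at 2953 against 6691 TPM.

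Among 12 type 1 markers, of the flat cells of gas exchange, 7 had a difference below 0 (median -0.20). In each direction 1 of the 12 passed 2-fold, beside 7.62% of all genes compared upwards and 7.89% downwards. Ager was at 627.2 TPM off drug and 815.8 on gefitinib (-0.38), Aqp5 at 380.9 and 669 (-0.81) and Hopx at 42.5 and 67.4 (-0.65). Sec14l3 passed 2-fold at 14.6 against 85.6 TPM (-2.47), and Emp2 in the opposite direction at 352.9 against 100.1 (1.81). Club and secretory genes, of the conducting airways, were lower: 6 of 12 passed 2-fold downwards, none upwards (median -0.65). Cbr2 (chromosome 11, 120729485 to 120732025), a carbonyl reductase gene of club cells, was the lowest of all genes, at 42.3 TPM off drug and 2398 on gefitinib (-5.79). With vehicle at day 3 it was at 343 TPM, and it was at 69.2 to 130.1 TPM in the antibody libraries of day 21, so that the day 14 library had the highest value of the 7. Cyp2f2, a cytochrome gene of club cells, was at 111.1 against 615.7 TPM (-2.46) and the secreted airway protein gene Bpifa1 at 3235 against 6498 (-1.01). Scgb1a1, the defining club cell gene, was low in both, at 2.2 against 11 TPM.

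Transcription factors listed here for stomach and gut were higher off drug, and the other genes of that list went both ways. Of 41 such genes in the file, 25 passed the filter on low values, 13 of them at least 2-fold higher and 1 lower. A gene that is high in few libraries passes only through them, so this count is a description. The other 16 included Cdx1, Cdx2, Pdx1, Tff2 and Tff3, which were listed at 0 in both libraries. Hnf4a (chromosome 2, 163506811 to 163572907), which encodes a transcription factor of gut and liver cells, was at 52.3 TPM off drug, against 2.2 on gefitinib (4.06). With vehicle at day 3 it was at 1.4 TPM, so the off-drug value was the highest of the 4 libraries in the course. Foxa3 was at 29.2 TPM off drug and 6.2 on gefitinib, Gata4 at 12.1 and 0.8, and Gata6 at 41.3 and 17.8. In all, 7 of the 9 factors compared were at least 2-fold higher, Foxa2 (0.92) and Onecut2 (0.71) being the others. Some were already abundant with vehicle at day 3, where Foxa1, Foxa2 and Gata6 were at 201.3, 50.1 and 68.4 TPM. The part of the epithelial share in these values was not tested.

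Among the other genes of the list, 2 of 7 gastric and 4 of 9 intestinal genes compared were at least 2-fold higher, and Tm4sf5 was lower at 1.8 against 5.3 TPM. Gkn2, which encodes a gastric mucosa protein, was at 109.7 TPM off drug against 2.6 on gefitinib (4.94), and at 89.7 in the day 3 vehicle library. Vil1, for villin of the brush border, was at 53.3 against 1.3 TPM (4.56) and at 6.2 in the day 3 vehicle library. Ceacam1, an adhesion gene of gut and other epithelia, was at 269.4 against 66.5 TPM (2.00). The gastric mucin genes Muc5ac and Muc6 were at 1.3 and 3.4 TPM off drug, against 3 and 7.5 TPM on gefitinib. Also among the 15 highest were Hpx and Ttr, which the liver secretes, whereas Hp, for the plasma protein haptoglobin, was at 75.8 against 493.5 TPM (-2.69). Hpx, for the heme carrier hemopexin, was at 54.2 against 3.1 TPM (3.75), and Ttr, for transthyretin, was at 13.5 TPM off drug and listed at 0 on gefitinib. Other epithelial genes among the 15 highest were Tmem27, known from kidney and pancreas, at 21.7 against 0.8 TPM, Hkdc1, a hexokinase family gene, at 23.3 against 1, Anxa13, an annexin gene of gut epithelium, at 19.6 against 0.7, and Ifi27l2b at 98.7 against 5.9.

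Squamous and skin barrier genes went both ways. Of 32 in the file, 19 passed the filter, 9 of them at least 2-fold higher and 5 lower. Some low genes passed only through the libraries where they were high, so these counts are a description. Among the lower genes, Krt15 and Dsc3 passed only with their day 14 values, 1.5 and 1.6 TPM. Small proline-rich and envelope genes, whose products toughen the surface of skin, included the 2 highest genes of all, Sprr2a2 and Sprr2a1, at 54 and 53.6 TPM off drug, against 0.2 TPM each on gefitinib. These 2 genes and Sprr2a3, at 11.3 TPM off drug and listed at 0 on gefitinib, lie close together on chromosome 3 and are near copies, so their separate values are uncertain. Crct1 was at 172.3 against 8 TPM (4.27), Ivl, for involucrin, at 28.5 against 4.9 (2.32), and Sprr1a at 78.7 against 18 (2.07). Krt17, a keratin of wounds and stress, was at 113.2 TPM off drug against 13 on gefitinib (3.03), and at 1.3 in the day 3 vehicle library. The basal squamous genes Krt5 and Trp63 were not higher, at 0.6 against 7.8 TPM and 0.6 against 1.7 TPM. Of 8 imprinted fetal growth genes, 4 were at least 2-fold higher and the other 4 lay below 0, among them Peg3 at 2.9 against 5 TPM (-0.62). Dlk1 was at 171.6 TPM off drug and 15 on gefitinib (3.43), below its day 3 vehicle value of 822.5 TPM. Sox9, a progenitor factor, was at 75.3 against 13 TPM (2.45) and is 1 of 2 higher genes among 9 Wnt targets, of which 3 were at least 2-fold lower (median -0.89).

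**Figure D3:**
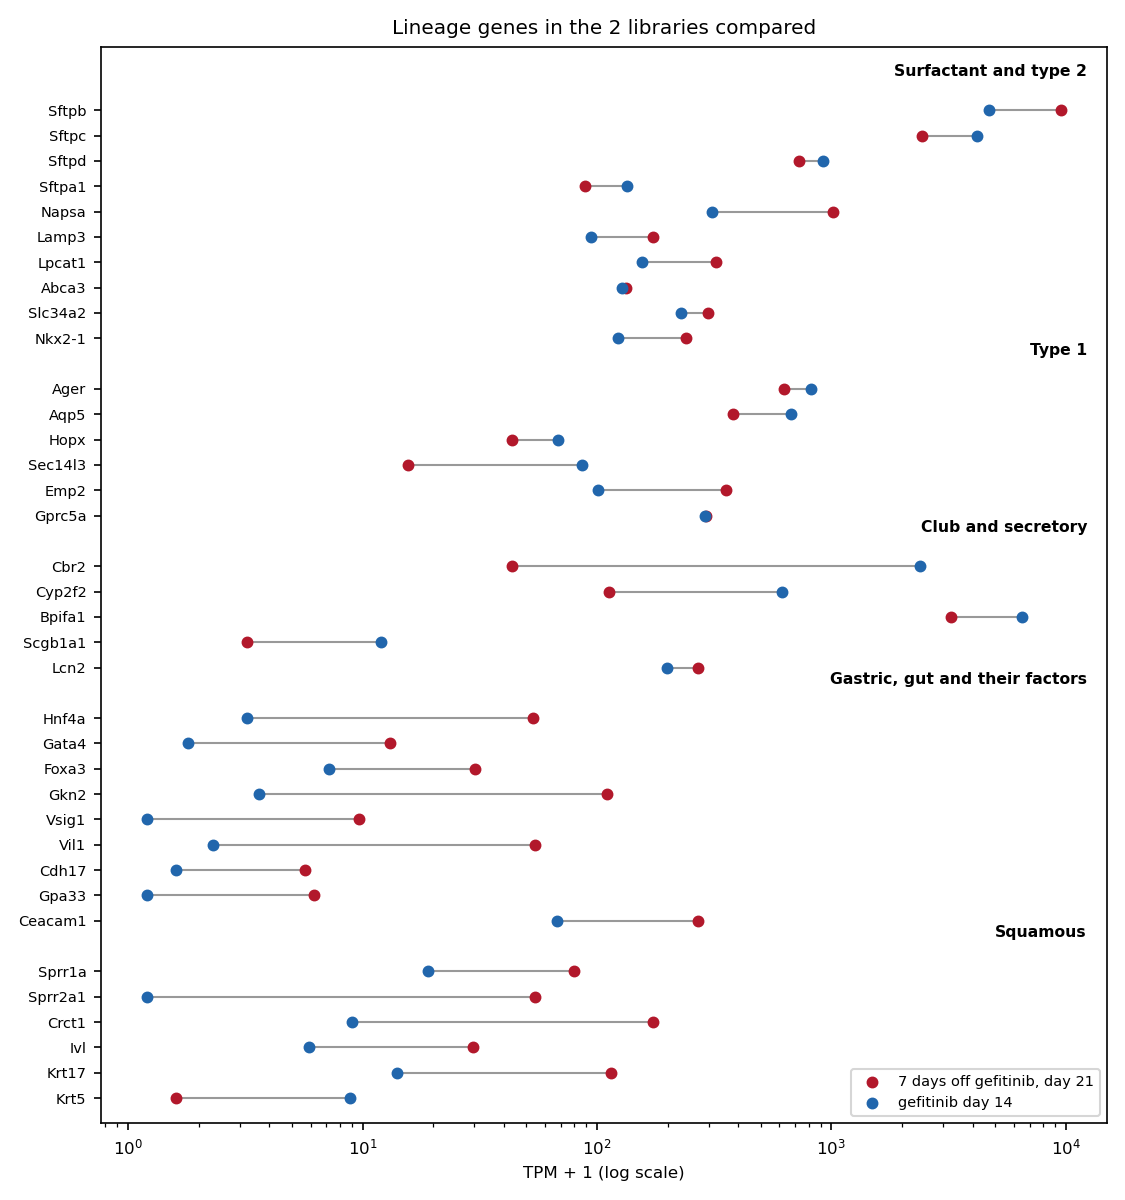
TPM + 1 on a log x axis for lineage genes, with 7 days off gefitinib in red and gefitinib day 14 in blue, 1 library each, joined by a line. Cbr2 lies at 42.3 against 2398 TPM and Hnf4a at 52.3 against 2.2, while Sftpb (9561 against 4709) and Sftpc (2429 against 4162) part in opposite directions.

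Lymphocyte genes were lower off drug. All 13 genes of the T cell receptor and its signalling were at least 2-fold lower (median -1.32). The differences ran from -1.60, for Cd3d, to -1.04. Cd2, an adhesion receptor gene of T cells, was at 33.5 TPM off drug and 96.2 on gefitinib (-1.49), and Zap70, the kinase gene downstream of the receptor, at 13.7 and 38.4 (-1.42). Coreceptor genes differed to different degrees: Cd4 was at 31.4 TPM off drug against 106.9 on gefitinib (-1.74), Cd8a at 30.6 against 58.8 (-0.92) and Cd8b1 at 29.7 against 49.1 (-0.71). All 3 were above the day 3 vehicle library, where they were at 3.5, 0.7 and 0.7 TPM. Foxp3, the regulatory T cell factor, was at 11.4 against 23.2 TPM (-0.96). Ccr8, a receptor gene of tumor regulatory T cells, was at 6.1 against 18.3 (-1.44).

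Effector genes were lower as well, with 7 of 14 CD8 and cytotoxic genes past 2-fold, all downwards. Xcl1, a chemokine gene for cross-presenting dendritic cells, was at 5.6 against 26.7 TPM (-2.07), Gzma at 5.8 against 19.5 (-1.59) and Gzmk at 5.1 against 13 (-1.20). Ifng was at 10.1 against 14.4 TPM (-0.47), the smallest difference of the 14. Gzme was the third highest gene, at 158.9 TPM off drug and 3.1 on gefitinib (5.29), while its neighbour in the granzyme cluster of chromosome 14, Gzmc, was at 8 and 20.4 (-1.25). Gzmd was at 2.6 TPM off drug and listed at 0 on gefitinib, Gzmf and Gzmn were listed at 0 in both, and Gzmg was at 0.3 TPM off drug and listed at 0 on gefitinib. Granzyme genes of this cluster are similar in sequence, so their separate values are uncertain. Gzme had 8.5 TPM with vehicle at day 3, where Gzma and Prf1 were at 3.4 and 1 TPM.

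Of 9 checkpoint receptor genes, 6 were at least 2-fold lower, and of 7 ligand genes 1 was lower and 2 higher. Pdcd1, which encodes PD-1, was at 27.5 TPM off drug and 85.5 on gefitinib (-1.60), Btla at 2.5 and 10.4 (-1.70), Tigit at 22.7 and 53.9 (-1.21) and Lag3 at 50.4 and 99.7 (-0.97). Cd274, for PD-L1, was at 36 against 74.2 TPM (-1.02). Lgals9, for galectin-9, was at 274.9 TPM off drug against 132.1 on gefitinib (1.05), and Nectin2, a ligand of the TIGIT family that epithelial cells express, at 234.4 against 98.9 (1.24). Naive and stem-like T cell genes were lower, with 6 of 9 past 2-fold, among them Tcf7 at 9.5 against 30.9 TPM (-1.60) and Lef1 at 1.8 against 7.8 (-1.65). Of 9 natural killer cell genes compared, 5 were at least 2-fold lower, including Ncr1 at 2 against 6.4 TPM. The 1 higher member was Itga2, which epithelial cells also use.

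Of 12 B and plasma cell genes, 10 were at least 2-fold lower, and the median was -1.61. Mzb1 and Jchain, genes of antibody secretion, were at 4.6 and 42.1 TPM off drug, against 62 and 288.8 TPM on gefitinib, and with vehicle at day 3 they were at 1.8 and 0.4 TPM. Ms4a1, for CD20, was at 0.5 against 6.1 TPM (-2.24) and Cd79a, of the B cell receptor, at 7.5 against 27.1 (-1.73). Sdc1, used as a plasma cell marker but abundant in epithelium, was at 763.6 against 493.3 TPM (0.63). Of 8 chemokine genes that act on T cells, 5 were at least 2-fold lower, among them Ccl19 at 0.7 against 9.5 TPM (-2.63) and Ccl21a at 10.5 against 46 (-2.03), while Cxcl13 differed by -0.22.

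Of 36 macrophage and monocyte genes, 17 were at least 2-fold lower and 2 higher (median -0.91), and the list held 1.64% of all TPM off drug against 3.82% on gefitinib. Adgre1, for the macrophage antigen F4/80, was at 115.1 TPM off drug and 366.8 on gefitinib (-1.66), and Gpnmb, a lysosomal gene of lipid-laden macrophages, at 21.6 and 98.3 (-2.14). Apoe, the second largest loss in TPM, was at 5599 against 17691 TPM (-1.66). Ly6c2, of inflammatory monocytes, was at 95.3 against 271.4 TPM (-1.50). The 2 higher genes were Spp1, given above, and the elastase gene Mmp12, at 104.2 against 46.2 TPM (1.16). Arg1 was at 18 against 27.4 TPM (-0.58), far below the 142.4 TPM of the day 3 vehicle library. Retnla, a gene of alternative activation that fat tissue also expresses, was the second lowest of all genes, at 47.5 against 1710 TPM (-5.14), whereas another gene of that state, Mgl2, was at 108.9 against 71 (0.61).

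Dendritic and mast cell genes were lower off drug. Of 14 conventional dendritic genes, 9 were at least 2-fold lower, among them Xcr1 at 3 against 11 TPM (-1.58) and Flt3 at 3.3 against 11.7 (-1.56), and Ccl17 was higher at 16.1 against 4.3 (1.69). Of 10 mast cell genes, 6 passed the filter and 5 of those were at least 2-fold lower. The mast cell proteases Cpa3, Cma1 and Tpsb2 were at 1.4, 4 and 10.8 TPM off drug, against 13.7, 28 and 59.7 TPM on gefitinib. Hdc, which makes histamine and is not confined to mast cells, was at 52.9 against 25.4 TPM (1.03). Among defining neutrophil genes, S100a8, S100a9 and Ly6g were listed at 0 in both libraries. A listed 0 may not be a measured absence in this table, since all 13 mitochondrial protein genes are listed at 0 in every library. Of 8 neutrophil and neutrophil chemoattractant genes compared, 3 were at least 2-fold higher and 2 lower (median 0.21). The lower genes were Csf3r, which macrophages share, at 19.6 against 62.6 TPM (-1.63), and Retnlg, among the 15 lowest at 0.4 against 12.2. The higher genes were Mmp9 (1.73), Cxcl2, at 1.9 against 0.3 TPM, and Cxcl3, at 5 TPM off drug and listed at 0 on gefitinib. Cxcl3 passed the filter only through its off-drug value, so its place in this count is a description.

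Antigen presentation was lower, class II more than class I in the medians. Of the 10 MHC class II genes, 5 were at least 2-fold lower (median -1.01), and they held 2.80% of all TPM off drug and 5.48% on gefitinib. Cd74, the invariant chain gene, was the largest loss in TPM of all genes, at 14452 TPM off drug against 27625 on gefitinib (-0.93), and H2-Ab1, H2-Aa and H2-Eb1 were at 6261, 3800 and 2681 TPM off drug, against 11995, 8032 and 5826 TPM on gefitinib. All 19 MHC class I genes lay below 0 (median -0.50). Only 1 was at least 2-fold lower, H2-T23 at 450.1 against 1057 TPM, beside 7.89% of all genes compared. B2m, for the light chain, was at 5434 against 7688 TPM (-0.50), and at 1056 TPM in the day 3 vehicle library.

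Genes induced by interferon gamma parted within the list. The chemokines and the protease inhibitor gene Serpina3g were lower: Cxcl9 and Cxcl10, which attract activated T cells, were at 111.8 and 67.5 TPM off drug, against 511.9 and 323.5 TPM on gefitinib, and Serpina3g was at 58.2 against 281.5 (-2.25). Of the 13 GTPases, which defend cells against intracellular microbes, 3 were at least 2-fold lower: Gbp8 (14.2 against 49.2 TPM), Gbp4 (30 against 97.1) and Gbp5 (48.3 against 134.5). Irgm1 and Iigp1 differed by only -0.06 and -0.34, and Tgtp1 was at 350.6 against 301.7 TPM (0.22). Near copies within these families make single values uncertain. The 17 type I interferon genes had a median of -0.36. Only 1 was at least 2-fold lower, Zbp1 at 74.4 against 149.8 TPM, beside 7.89% of all genes compared.

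Promoters of Cxcl10 and Gbp5 are shown because both genes passed 2-fold and each holds a match to the interferon-stimulated response element. They are RefSeq sequence in GRCm38.p6, 5′ to 3′ in the direction of the gene, for chr5:92348890-92349139 on the minus strand and chr3:142496684-142496933 on the plus strand. Capitals mark the match, searched on both strands, of that element, written as GAAA, any 2 bases and GAAA, which lies 213 bases before the start of Cxcl10 and 165 before that of Gbp5.
Cxcl10: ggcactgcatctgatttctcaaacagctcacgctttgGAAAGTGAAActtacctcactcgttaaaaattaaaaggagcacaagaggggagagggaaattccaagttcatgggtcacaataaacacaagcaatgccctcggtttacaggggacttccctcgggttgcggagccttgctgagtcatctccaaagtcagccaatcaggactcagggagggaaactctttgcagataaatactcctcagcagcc
Gbp5: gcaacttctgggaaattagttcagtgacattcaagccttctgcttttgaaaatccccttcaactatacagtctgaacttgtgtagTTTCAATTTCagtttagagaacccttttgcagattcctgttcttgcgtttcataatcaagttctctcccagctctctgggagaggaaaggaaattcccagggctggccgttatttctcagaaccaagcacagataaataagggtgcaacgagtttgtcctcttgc
All 9 GTPase promoters in the table held the element within 250 bases before to 50 bases after the start, against 3.22% of the promoters of genes compared. The match was therefore present in GTPase genes that passed 2-fold and in those that did not.

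Complement and Fc receptor genes were lower, 13 of 19 by at least 2-fold (median -1.07). C3, the central component, was at 244.1 TPM off drug and 911.6 on gefitinib (-1.90), C2 at 17.5 and 60.6 (-1.74) and C1s1 at 98.6 and 305.4 (-1.62). Fcgr4, an activating receptor gene for antibody, was at 115.5 against 273.7 TPM (-1.24). Chemokines for monocytes were mixed, with Ccl2 at 77.1 against 304.2 TPM (-1.97) and Ccl8 at 673.1 against 2161 (-1.68), while Ccl3 and Ccl6 differed by -0.06 and -0.04. Among receptors of the IL-6 family, Il6ra was at 38.7 against 110.1 TPM (-1.48) and Il6st at 84.2 against 184 (-1.12), and Lif, a ligand gene, was at 21.9 against 8.3 (1.30).

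**Figure D4:**
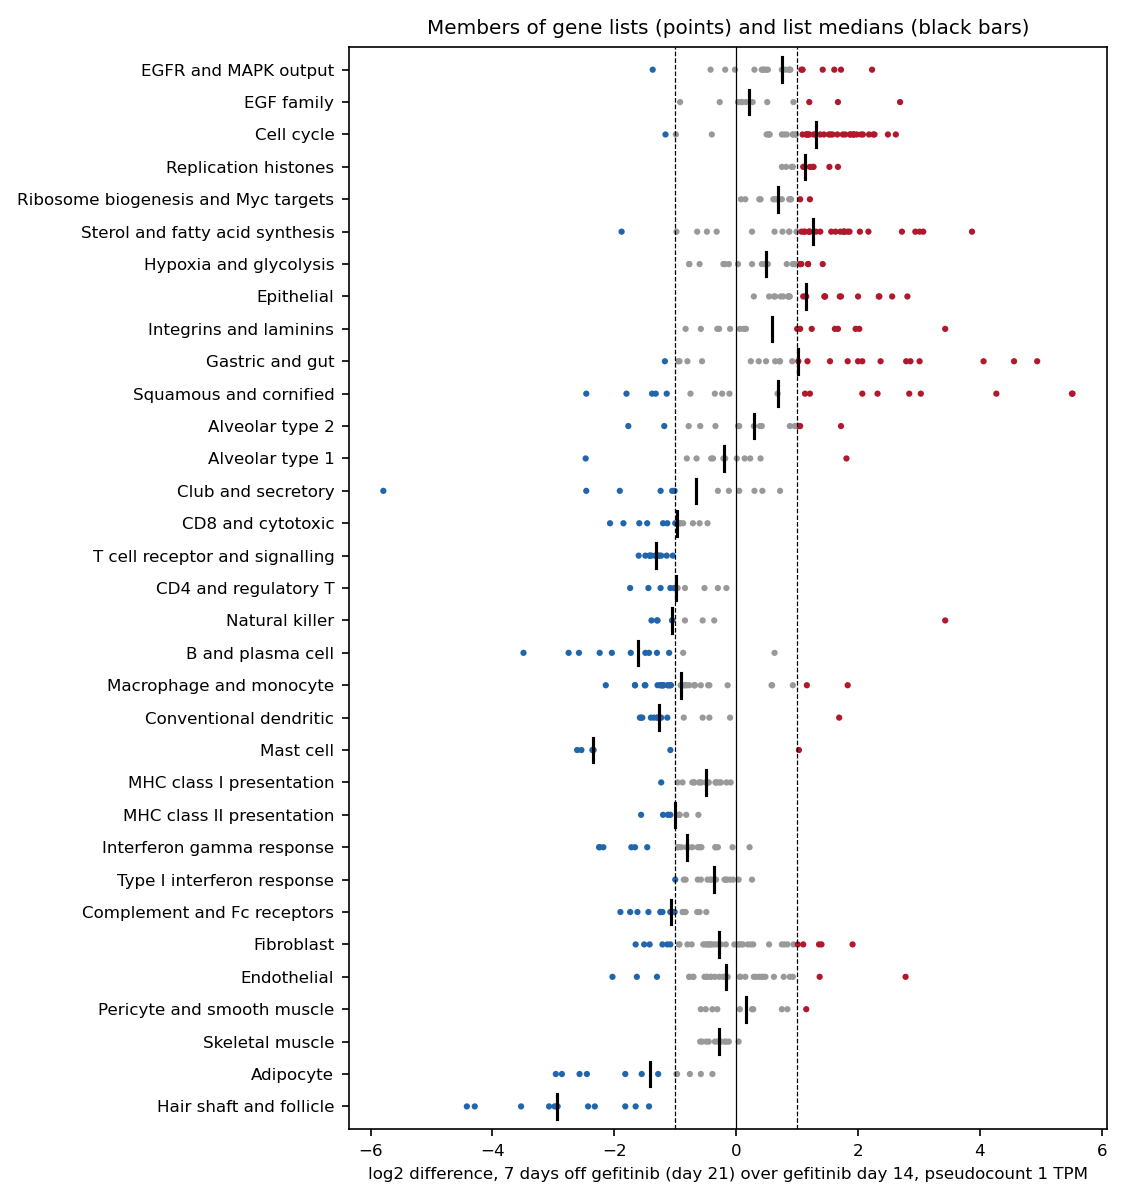
Log2 difference, 7 days off gefitinib over gefitinib day 14, for the compared members of 33 gene lists (points; red at least 2-fold higher, blue at least 2-fold lower) with the list median as a black bar. All 23 epithelial genes lie right of 0, all 13 T cell receptor genes lie left of the 2-fold line, and the 12 skeletal muscle genes lie between -0.59 and 0.04.

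Fibroblast genes differed by kind in their medians. Identity genes of resting fibroblasts were lower, 6 of 14 by at least 2-fold and all 14 below 0: Dcn, for the matrix protein decorin, was at 101.6 TPM off drug and 321.6 on gefitinib (-1.65), Dpt at 44.5 and 128.6 (-1.51) and Fbln1 at 40.2 and 108.9 (-1.42). Genes of activated fibroblasts went both ways, with a median of 0.28. Of 13 compared, 9 lay above 0 and 4 below, and 2 were at least 2-fold higher, beside 7.62% of all genes compared. Fap and Postn were among those below 0, at -0.44 and -0.33. Acta2 and Tagln, of contractile cells, were at 188.2 and 143.5 TPM off drug, against 104.5 and 85 TPM on gefitinib, and Cthrc1 was at 46.2 against 22.4 (1.01). Among proteases of the matrix, Mmp9 was at 48.2 against 13.8 TPM (1.73), while Mmp2 was at 180.1 against 411.2 (-1.19).

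Of 33 endothelial genes compared, 2 were at least 2-fold higher off drug and 3 lower (median -0.16), beside 7.62% and 7.89% of all genes compared. Within that list, none of 16 pan-endothelial genes reached 2-fold. Kdr, which encodes VEGFR2, was at 19.6 TPM off drug and 18.6 on gefitinib (0.07). Apln, a peptide gene of sprouting tip cells that tumors can also express, was at 53.8 against 7 TPM (2.78), and it had 227.4 TPM with vehicle at day 3. Nid2, of the vessel basement membrane, was at 35.2 against 13 TPM (1.37). Ackr1, a marker of venules, was lower at 7.9 against 26.6 TPM (-1.63). The coreceptors of VEGF, Nrp1 and Nrp2, which myeloid cells also carry, were at 47.3 and 32.7 TPM off drug, against 115.3 and 83.6 TPM on gefitinib. Of 10 pericyte and smooth muscle genes, 1 was at least 2-fold higher and none lower, again beside 7.62% and 7.89% of all genes compared. It was Mcam, at 88.8 against 39.5 TPM (1.15).

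Skin and fat RNA differed between the 2 libraries, and muscle RNA little. The 12 hair shaft and follicle genes compared were all at least 2-fold lower off drug, beside 7.89% of all genes compared. A gene that is high in few libraries passes the filter only through them, so this count is a description. Msx2, at 1.7 TPM on gefitinib and 5.7 with both antibodies, would not have passed without its day 14 value. Tchh, for trichohyalin, was at 1 TPM against 41.8 on gefitinib (-4.42) and Krt71, of the hair root sheath, at 0.6 against 30.2 (-4.29). The hair matrix genes Krtap8-1 and Krtap7-1 were listed at 0 off drug and were at 14.8 and 11.9 TPM on gefitinib. Adipocyte genes had a median of -1.41: Retn, for resistin, was at 1 against 14.6 TPM (-2.96), Cfd, for adipsin, at 50.9 against 376.8 (-2.86) and Adipoq, for adiponectin, at 3.1 against 23.4 (-2.57). The adipocyte list held 0.0368% of all TPM off drug against 0.104% on gefitinib, and the muscle list 0.319% against 0.386%. Apoc4-apoc2, a readthrough locus that overlaps both lipoprotein genes it is named for, was listed at 0 off drug and at 21.7 TPM on gefitinib. The skin and fat values moved in the same direction as the medians of the lymphocyte, macrophage and club cell lists. Their part in those results was not tested.

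Further genes among the 15 lowest were Aox3, an aldehyde oxidase gene, at 1.4 TPM off drug against 34.2 on gefitinib (-3.87), Kcnj15, a potassium channel gene, at 8.3 against 107.7 (-3.55), Gdpd2, at 2.9 TPM off drug against 34.9 on gefitinib (-3.20), and Ly6i, a Ly6 family gene, at 4.4 against 45.9 (-3.12). Krt25, a hair keratin gene, was at 0.1 against 11.7 TPM. Among the 10 largest gains in TPM not yet described, the cytoskeletal gene Actg1 was at 5004 against 2384 TPM (1.07) and Eef1a1, a translation factor gene, at 7439 against 6108 (0.28). Among the losses, Psap, a lysosomal gene, was at 3649 against 7265 TPM (-0.99) and H2-D1 at 4268 against 6881 (-0.69). The differences were spread over the genome. Chromosome medians ran from -0.14 on chromosome 14 to 0.15 on chromosome 12. Chromosome 13 had the largest share of genes at least 2-fold higher, 13.1% of 526, and chromosome 1 the largest share lower, 11.8% of 815.

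Summed list levels placed the off-drug library beside the other libraries. The MHC class II share of all TPM was 0.821% with vehicle at day 3, 3.23% and 5.48% after 3 and 14 days of gefitinib, and 2.80% off drug. For T cell receptor genes the shares were 0.00807%, 0.061%, 0.123% and 0.0508% in the same order. For epithelial genes they were 0.558%, 0.198%, 0.303% and 0.96%, so that here the off-drug share was the highest of the course. The library treated with DC101 after gefitinib had 2.51% for MHC class II, 0.0384% for T cell receptor genes and 0.66% for epithelial genes. With 4H2, epithelial genes held 0.0164% and skeletal muscle genes 8.57%, and with both antibodies 0.0633% and 8.46%.

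**Figure D5:**
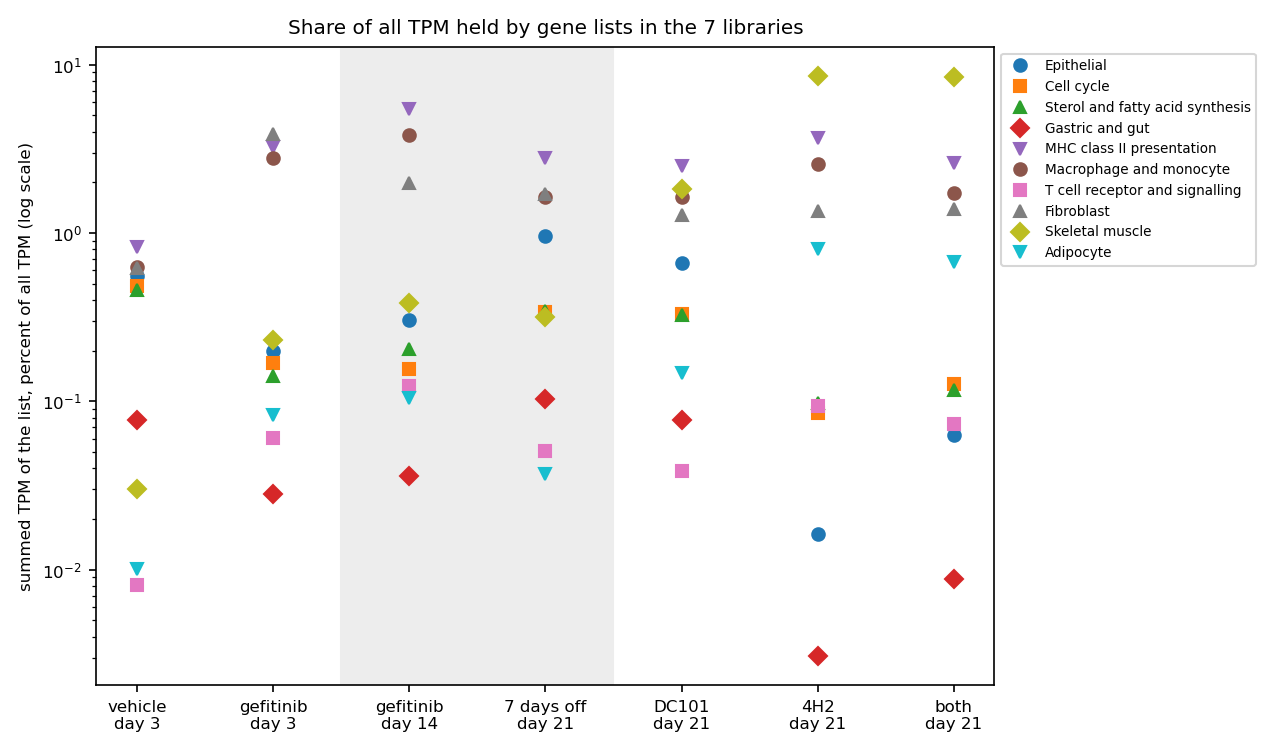
Summed TPM of 10 gene lists as a percent of all TPM, on a log y axis, in the 7 libraries, with the 2 libraries compared on a grey ground. The epithelial list is highest in the library 7 days off gefitinib, at 0.96%, and skeletal muscle holds 8.57% with 4H2 and 8.46% with both antibodies.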

How the data were processed

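RNA was extracted from frozen tumor tissue, depleted of ribosomal RNA and made into directional libraries, per the labels' protocols. The authors deposited 1 table of TPM values for all 7 libraries, rounded to 1 decimal, and the submitters' processing notes name the genome build GRCm38.p6. Which aligner, counter and annotation were used is not stated in the sources used here, nor is the treatment of reads common to near copies. TPM gives no read number, so depth is unknown and no counting interval was given. TPM sums to 1000000 in each library, so a gain in some genes lowers the values of others.

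From these values, log2((TPM + 1) / (TPM + 1)) was computed for genes whose TPM averaged 1 or more across the 7 libraries, and genes past 2-fold were counted. With 1 library per group no test was made. The members of 61 gene lists, the gene lists and the comparison were chosen with earlier results of these data known, and 869 of the 969 list genes were compared; 20 are not analysed here and the others were under the filter. Named genes are the 15 highest and 15 lowest with at least 10 TPM in either library (predicted, noncoding, ribosomal protein and histone genes left out), the 10 largest gains and losses in TPM and the members that differed most in each list; any other gene was chosen after its values were seen. Some genes that this rule names are not reported here. Promoters are from RefSeq. The scripts were tested on simulated data. Alternatives were the pseudocount, the filter, the scaling, the threshold, the summary of a list and leaving out members of other lists. Python 3.11.15, pandas 2.3.3, numpy 2.4.6 and matplotlib 3.10.9 were used.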

Additional observations from a re-analysis of the deposited data

How the results depend on the processing

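With 1 library per group, no replicate could be left out, and no spread was measured. No paired analysis was possible because each group has 1 library. At a pseudocount of 5 in place of 1, 674 genes were at least 2-fold higher off drug and 538 lower, and at a threshold of 3-fold the counts were 400 and 244. The share of genes past the threshold that were higher was 49.1% as reported, 62.1% at 3-fold, 55.6% at a pseudocount of 5, 45.6% at a pseudocount of 0.1 and 46.0% after scaling by the median of ratios. Of 522 recomputed list medians, 504 kept their sign and stayed within 1.5-fold of the reported value, 11 moved by more and 7 changed sign. Without a filter on low values, the gastric and gut median was 0.28, against 1.02 as reported. With a mean TPM of at least 5, the plasmacytoid dendritic median was 0.04 and the erythroid median 0.34. Taking the mean of members gave 0.16 for erythroid genes and 0.09 for unfolded protein and amino acid stress genes. Without members of other lists, the medians were 0.41 for Wnt targets, -0.41 for neutrophil genes and -0.12 for pericyte and smooth muscle genes. The cause of these changes was not tested. Of 3560 recomputed differences of single genes, 128 moved by more than 1.5-fold, all with another pseudocount, and none of a gene past 2-fold changed sign.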
